A study of Rattus norvegicus with 37 samples.

Results

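A group of 9 named genes of the acute phase and inflammation programme were followed in rat liver after spinal cord injury (SCI), by their Ensembl identifiers: Hp (ENSRNOG00000014964), Fgb (ENSRNOG00000007092), Fgg (ENSRNOG00000025074), Orm1 (ENSRNOG00000007886), Lcn2 (ENSRNOG00000013973), Socs3 (ENSRNOG00000002946), Stat3 (ENSRNOG00000019742), Icam1 (ENSRNOG00000020679) and Ccl2 (ENSRNOG00000007159). They were chosen by identifier for what they are known to do, with earlier results of these data known. All 9 were found among the 24613 genes counted. Within the 2 sets of rats, Orm1 was the 1 gene of the 9 that passed the test, being lower in contused rats housed in tiny cages than in uninjured rats in standard cages, a comparison in which 12.5% of all genes tested were called. That call was lost when any 1 of 6 rats was left out. In those 6 fits the Orm1 log2 fold change was -0.59 to -0.77, against -0.72 with all rats. Fewer of all genes were also called in each of them, and in some of the fits that kept the call. The levels of Socs3 and Ccl2, and of Fgg in uninjured rats, differed between the sets, along with a large share of all genes. Fgb and Fgg varied together from rat to rat in both sets.

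Livers came from 37 adult female Sprague-Dawley rats in 8 groups, and poly A RNA was sequenced. In the SCI + In-Cage Activity set (15 rats, 5 a group), uninjured rats stayed in standard cages (No SCI + Standard), and rats with a contusion of the spinal cord at the second thoracic level were kept in tiny cages that restrict movement (CONT SCI + Tiny) or in large cages that allow it (CONT SCI + Large). In the SCI + Exercise set (22 rats), all rats lived in tiny cages: No SCI (4 rats), CONT SCI (4), complete transection at the same level (TX SCI, 4), and contusion followed by swimming (CONT SCI + SWIM, 5) or shallow water walking (CONT SCI + SWW, 5). Collection was 11.5 weeks after injury or at an equivalent age per the labels, and 8.5 weeks for TX SCI. The labels and the study's methods differ on how long the exercised rats trained and when they were collected, so time after injury may differ for those groups too. No SCI + Standard rats differed from the contused rats of their set in cage as well as in injury, and these cannot be told apart. Rats shared a cage with another of the same group, so cage-mates are not fully separate.

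The acute phase response is the change in plasma protein production by hepatocytes during injury, infection or inflammation. Interleukin 6 and related cytokines act through gp130 and JAK kinases on STAT3, a transcription factor that drives genes of acute phase proteins. Interleukin 1 and tumour necrosis factor act through NF-kappa B, often together with C/EBP factors. Among the products, haptoglobin (Hp) binds free haemoglobin, fibrinogen beta and gamma chains (Fgb, Fgg) are 2 of the chains of the clotting protein, orosomucoid 1 (Orm1) is an abundant plasma glycoprotein that binds drugs and lipids, and lipocalin 2 (Lcn2) binds bacterial iron carriers. SOCS3 is induced by STAT3 and inhibits the same receptor signalling. ICAM1 is an adhesion molecule that leukocytes bind on endothelium and other cells, and CCL2 is a chemokine that attracts monocytes. Whole liver was measured, so fewer cells of a type and less RNA per cell cannot be told apart.

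The 250 bases before the annotated start of Fgb, Fgg and Orm1 are shown because the first pair varied together and Orm1 carried the within-set call. They are from RefSeq on build GRCr8, which is not the build of the counts, and 7 of the 9 genes had an entry. Capitals mark matches on either strand to TTCNNNGAA (STAT), to GGG and CC separated by 5 bases of any kind (NF-kappa B) or to TTNNGNAA (C/EBP). The Fgb promoter is at chr2:170700876-170701125 (minus strand), the Fgg promoter at chr2:170652833-170653082 (plus strand) and the Orm1 promoter at chr5:81788259-81788508 (plus strand), each written 5′ to 3′.
Fgb: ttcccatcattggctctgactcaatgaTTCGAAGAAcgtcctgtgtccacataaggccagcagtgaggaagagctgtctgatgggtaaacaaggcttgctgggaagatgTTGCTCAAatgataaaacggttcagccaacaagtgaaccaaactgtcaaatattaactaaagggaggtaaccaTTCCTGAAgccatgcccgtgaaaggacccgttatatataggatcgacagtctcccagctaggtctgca
Fgg: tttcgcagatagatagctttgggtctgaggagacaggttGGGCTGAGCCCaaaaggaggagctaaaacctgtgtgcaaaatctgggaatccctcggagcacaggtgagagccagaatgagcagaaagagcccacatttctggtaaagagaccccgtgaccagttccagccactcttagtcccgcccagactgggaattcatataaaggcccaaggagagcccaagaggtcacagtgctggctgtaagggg
Orm1: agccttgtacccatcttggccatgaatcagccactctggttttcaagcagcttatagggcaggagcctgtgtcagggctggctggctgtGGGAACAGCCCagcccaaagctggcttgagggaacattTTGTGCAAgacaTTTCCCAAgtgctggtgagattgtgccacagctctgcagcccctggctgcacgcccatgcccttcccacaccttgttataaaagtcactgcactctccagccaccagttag
The Fgb window held a STAT match at -223 to -215 from the start and C/EBP matches at -141 and -68. The Fgg window held overlapping NF-kappa B matches on opposite strands that span -211 to -201 and no match to the STAT or C/EBP letters. The Orm1 window held overlapping NF-kappa B matches that span -161 to -151 and C/EBP matches at -123 and -111. Of the 7 windows, 2 held a STAT match (Fgb and Icam1), 5 an NF-kappa B match and 4 a C/EBP match. Among all 33469 promoters of the same length the shares were 7.67%, 42.3% and 37.2%. None of the 7 held the full glucocorticoid receptor palindrome (AGAACA and TGTTCT separated by 3 bases of any kind), which occurred in 0.012% of all promoters. A match describes letters and is not a measured binding site. In the RefSeq gene order Fgg, Fga (the fibrinogen alpha chain) and Fgb lie next to each other on chromosome 2.

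Libraries of the SCI + In-Cage Activity set held 20066978 to 25130252 counts on genes, against 26190364 to 36761953 in the Exercise set, with no overlap between the sets. The 9 genes together took 1.36 to 2.54% of counts in the first set and 1.36 to 2.90% in the second. Levels are given as CPM, counts scaled to a common library size after TMM normalization, in order of replicate number, which carries no other order. They are not per transcript length and are not compared between genes. Hp was the most deeply counted (139428 to 507370 counts per rat) and Ccl2 the least (0 to 32 counts), so a Ccl2 level rests on few reads. Differences between groups are log2 fold changes from edgeR's quasi-likelihood test fitted on all genes of the 2 groups compared, with the standard error (SE) and the 95% interval where given, and adjusted p-values are by Benjamini-Hochberg over all genes tested. All 9 genes passed the filter on low counts in each comparison as fitted on all rats of its groups.

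**Figure D1:**
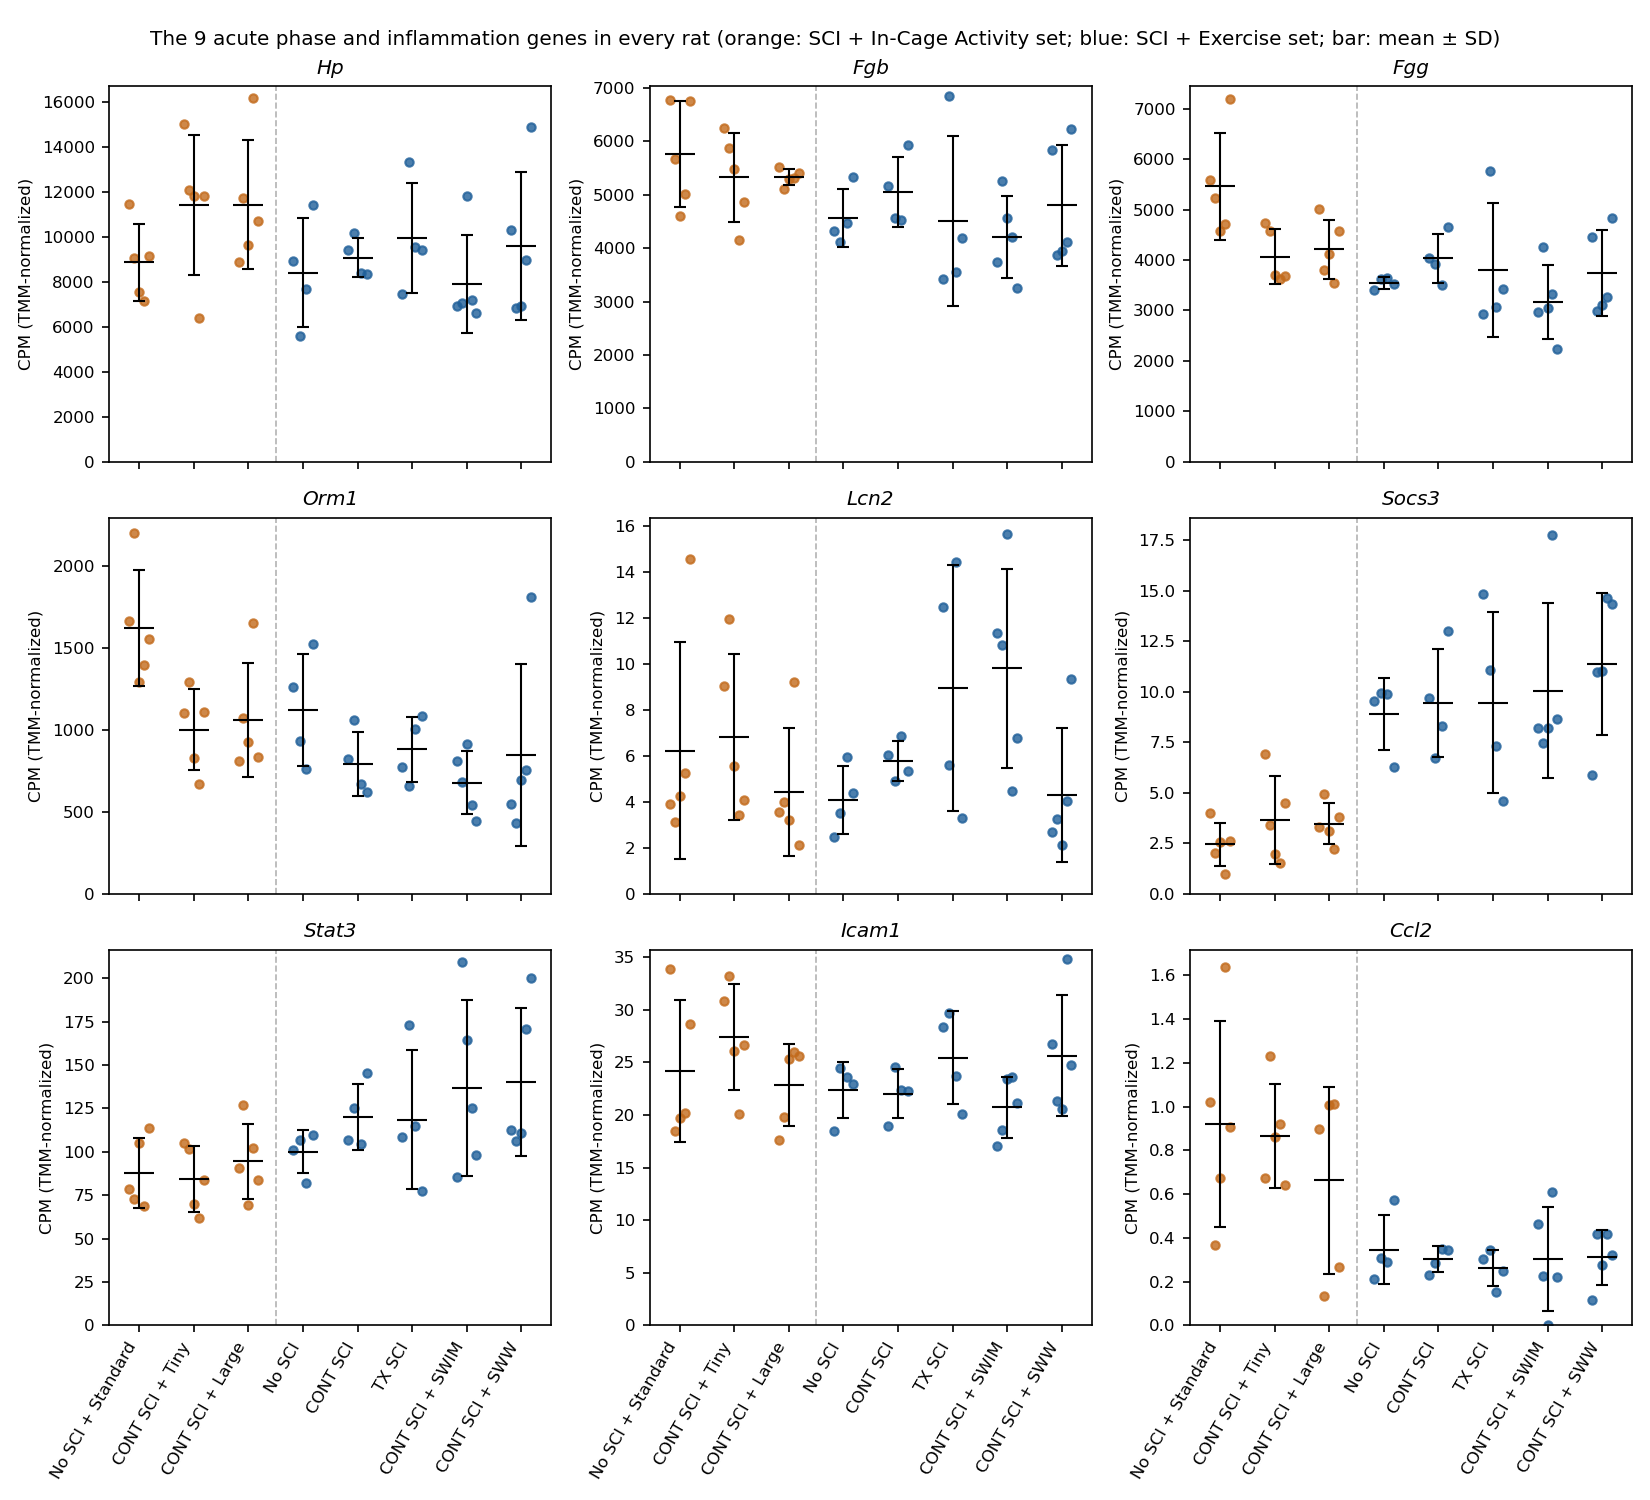
Level of each gene (vertical axis, TMM-normalized CPM from 0) in each rat (points) of the 8 groups, with the group mean and SD (bars). Orange groups are the SCI + In-Cage Activity set and blue groups the SCI + Exercise set. Socs3 group means sit between 2.43 and 3.65 CPM in the orange groups and between 8.90 and 11.4 CPM in the blue groups, while Orm1 is highest on average in the uninjured rats in standard cages.

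Orm1 had its highest mean in No SCI + Standard and its lowest in CONT SCI + SWIM. The 5 No SCI + Standard rats had 1668, 2201, 1294, 1397 and 1557 CPM, the CONT SCI + Tiny rats 1105, 1292, 827, 670 and 1111 CPM, and the CONT SCI + Large rats 809, 1071, 927, 1653 and 832 CPM. The tiny-cage rats all lay below the uninjured rats, by a margin of only 1292 against 1294 CPM, and 7.77% of all genes were separated in that comparison. The means were 1001 ± 249 CPM in CONT SCI + Tiny and 1623 ± 354 CPM in No SCI + Standard (SD, n = 5 each), a log2 fold change of -0.72 (SE 0.19, 95% interval -1.13 to -0.32, edgeR adjusted p = 0.0327). Orm1 was thereby the 1 of the 9 genes called in this comparison, where 12.5% of all genes tested were called. The call was lost without CONT SCI + Tiny replicate 1 (edgeR adjusted p = 0.0617), 3 (0.0891) or 5 (0.0624), or without No SCI + Standard replicate 2 (0.0658), 4 (0.0647) or 5 (0.0718), with log2 fold changes from -0.59 to -0.82 over all rats left out. In the fits that lost it these were, in that order, -0.76, -0.65, -0.76, -0.59, -0.77 and -0.73. Their edgeR unadjusted p was 0.00217 to 0.00698. Each of these fits called fewer of all genes than the 1479 with all rats, down to 15 without No SCI + Standard replicate 4. CONT SCI + Large rats averaged 1058 ± 348 CPM, with 1 rat at 1653 CPM inside the uninjured range, and the log2 fold change against No SCI + Standard was -0.64 (95% interval -1.09 to -0.19, edgeR adjusted p = 0.0936).

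In the SCI + Exercise set, where cage did not differ, Orm1 was 1261, 934, 761 and 1526 CPM in No SCI rats and 820, 1058, 669 and 621 CPM in CONT SCI rats. These ranges overlapped, and the log2 fold change was -0.50 (95% interval -1.02 to 0.02, edgeR adjusted p = 0.998). TX SCI rats had 776, 659, 1005 and 1084 CPM. The swimming rats had 812, 684, 914, 541 and 442 CPM, with a log2 fold change against No SCI of -0.71 (SE 0.25, unadjusted p = 0.0132, edgeR adjusted p = 0.365). The walking rats had 547, 430, 693, 752 and 1813 CPM, so 1 rat stood far above the other 4. The contusion effect on Orm1, -0.72 in tiny cages against standard cages in one set and -0.50 within tiny cages in the other, did not pass a test of its difference between sets (difference -0.20, 95% interval -0.86 to 0.45, edgeR adjusted p = 0.701).

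The fibrinogen chain genes shared the order of their 4 highest group means (No SCI + Standard, then CONT SCI + Large, CONT SCI + Tiny and CONT SCI) but not the size of the differences. Fgg was 5584, 5225, 4571, 4710 and 7200 CPM in No SCI + Standard, 4731, 4577, 3707, 3618 and 3681 CPM in CONT SCI + Tiny, and 5002, 3797, 4122, 3550 and 4576 CPM in CONT SCI + Large. Some contused rats reached the lower end of the uninjured range in both cage sizes. The log2 fold changes against No SCI + Standard were -0.45 for tiny cages (95% interval -0.78 to -0.12, edgeR adjusted p = 0.0632) and -0.39 for large cages (95% interval -0.73 to -0.06, edgeR adjusted p = 0.125), neither past the threshold. Fgb was 6774, 5663, 4603, 5014 and 6762 CPM in No SCI + Standard, 6259, 5881, 5488, 4156 and 4871 CPM in CONT SCI + Tiny, and 5112 to 5519 CPM in CONT SCI + Large. All 3 Fgb ranges overlapped, with log2 fold changes of -0.14 and -0.13 against the uninjured rats, whose 95% intervals ran from -0.47 to 0.20 and from -0.42 to 0.16. The CONT SCI + Large rats had the narrowest Fgb spread of any group, an SD of 151 CPM around a mean of 5334 CPM.

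In the SCI + Exercise set Fgg was 3397, 3620, 3637 and 3520 CPM in No SCI and 4030, 3924, 3506 and 4658 CPM in CONT SCI, which gave 0.19 on the log2 scale (95% interval -0.08 to 0.46). This sign is opposite to that of the tiny-cage contrast in the other set. In that contrast cage differed as well as injury, and these cannot be told apart. The difference between these contrasts, named the difference of contusion effects, was -0.62 on the log2 scale (SE 0.20, 95% interval -1.04 to -0.20, edgeR unadjusted p = 0.00588). It missed the threshold over all genes (edgeR adjusted p = 0.0994). Without No SCI replicate 2 it passed (edgeR adjusted p = 0.0484), at a difference of -0.63 and an edgeR unadjusted p of 0.00737. That fit called 2010 of all genes, against 25 with all rats. Among TX SCI rats, replicate 2 had 5761 CPM of Fgg and 6841 CPM of Fgb, against 2921 to 3416 CPM and 3432 to 4196 CPM in the other 3. The swimming rats averaged 3167 ± 726 CPM of Fgg and 4210 ± 766 CPM of Fgb, the lowest means of the 8 groups for both genes. Their log2 fold change against CONT SCI was -0.35 for Fgg (95% interval -0.71 to 0.01) and -0.27 for Fgb (95% interval -0.59 to 0.06).

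Hp means ran from 7920 ± 2183 CPM in CONT SCI + SWIM to 11431 ± 2861 CPM in CONT SCI + Large. The No SCI + Standard rats had 11478, 9080, 7544, 7127 and 9164 CPM, the CONT SCI + Tiny rats 15022, 12101, 11802, 6382 and 11806 CPM, and the CONT SCI + Large rats 8903, 11735, 9651, 16179 and 10689 CPM. The lowest rat of the set was a contused one, and the ranges overlapped. The log2 fold changes against No SCI + Standard were 0.34 (95% interval -0.10 to 0.78) for tiny and 0.35 (95% interval -0.05 to 0.74) for large cages, of positive sign where those of Orm1 and Fgg were negative. In the SCI + Exercise set Hp was 5613 to 11402 CPM in No SCI, 8346 to 10165 CPM in CONT SCI, 7469 to 13317 CPM in TX SCI, 6609 to 11805 CPM in CONT SCI + SWIM and 6816 to 14878 CPM in CONT SCI + SWW. No Hp comparison in either set had an interval that left out 0.

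Lcn2 had its highest means in CONT SCI + SWIM and TX SCI. The swimming rats had 11.3, 10.8, 15.6, 4.48 and 6.76 CPM and the TX SCI rats 12.5, 5.60, 14.4 and 3.28 CPM. The No SCI rats had 2.44, 3.50, 5.93 and 4.37 CPM, the CONT SCI rats 6.01, 4.88, 6.88 and 5.31 CPM, and the walking rats 2.69, 3.26, 2.10, 4.03 and 9.33 CPM. The high swimming and transected rats lay above all uninjured rats, but others of these groups lay inside the uninjured range. Swimming against No SCI gave a log2 fold change of 1.27 (SE 0.36, 95% interval 0.48 to 2.07, unadjusted p = 0.00455), which missed the threshold over all genes (edgeR adjusted p = 0.278). Against CONT SCI, with injury and cage held but time after injury perhaps not, swimming gave 0.76 (95% interval 0.09 to 1.43, edgeR adjusted p = 0.327). Transection against No SCI gave 1.15 (95% interval 0.16 to 2.14, edgeR adjusted p = 0.345), and swimming against walking gave 1.19 (95% interval 0.26 to 2.11, edgeR adjusted p = 0.782). Walking against CONT SCI gave -0.42 (95% interval -1.23 to 0.39), and without CONT SCI + SWW replicate 5, the rat at 9.33 CPM, it was -0.92 (edgeR adjusted p = 0.0368). These comparisons share control rats.

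Lcn2 in the SCI + In-Cage Activity set was 3.91, 3.13, 4.24, 5.27 and 14.6 CPM in No SCI + Standard, 9.03, 12.0, 5.56, 3.41 and 4.06 CPM in CONT SCI + Tiny and 3.55, 3.97, 3.21, 9.22 and 2.13 CPM in CONT SCI + Large. Each group held 1 or 2 rats well above the rest. The log2 fold changes against No SCI + Standard were 0.10 (95% interval -0.96 to 1.16) and -0.52 (95% interval -1.55 to 0.50), intervals the first wide enough to hold a log2 fold change of 1.

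Stat3 was 101, 107, 82.3 and 110 CPM in No SCI and 107, 125, 104 and 145 CPM in CONT SCI, a difference of 0.27 on the log2 scale (95% interval -0.05 to 0.58). Both exercised groups held rats far above these, with 85.6, 209, 165, 125 and 98.4 CPM after swimming and 113, 106, 111, 171 and 200 CPM after walking. Walking against No SCI gave 0.48 on the log2 scale (95% interval 0.04 to 0.92, edgeR adjusted p = 0.203) and swimming against No SCI 0.45 (95% interval -0.06 to 0.97). Against CONT SCI, with injury and cage held but time after injury perhaps not, the differences were 0.24 for walking and 0.18 for swimming. Both intervals held 0. In the SCI + In-Cage Activity set Stat3 lay between 61.7 and 127 CPM in all 15 rats, with a mean of 87.7 CPM in the uninjured rats, 84.4 CPM in CONT SCI + Tiny and 94.5 CPM in CONT SCI + Large.

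Socs3 did not pass the test in any comparison within a set. It was 9.52, 9.94, 9.86 and 6.26 CPM in No SCI, 9.71, 6.73, 8.28 and 13 CPM in CONT SCI, and 14.8, 11.1, 7.33 and 4.60 CPM in TX SCI. Swimming rats had 8.19, 7.47, 8.18, 17.8 and 8.64 CPM and walking rats 5.88, 11, 11, 14.7 and 14.3 CPM. The transected rats spanned both the lowest and one of the highest levels of this set, and the log2 fold change of CONT SCI against No SCI was 0.08 (95% interval -0.40 to 0.57). Contused rats of the SCI + In-Cage Activity set averaged 3.65 ± 2.17 CPM in tiny cages and 3.46 ± 1.00 CPM in large cages, against 2.43 ± 1.09 CPM in the uninjured rats. Their log2 fold changes were 0.57 (95% interval -0.32 to 1.46) and 0.50 (95% interval -0.17 to 1.16).

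Icam1 group means lay between 20.8 ± 2.90 CPM in CONT SCI + SWIM and 27.4 ± 5.03 CPM in CONT SCI + Tiny. Every group overlapped every other group of its set. The largest of the within-set differences tested was swimming against walking, with 17.1, 18.5, 23.4, 23.6 and 21.2 CPM against 26.7, 21.3, 20.6, 34.8 and 24.8 CPM, a log2 fold change of -0.32 (95% interval -0.65 to 0.02, edgeR adjusted p = 0.782). Ccl2 was close to the limit of counting. It had 5 to 21 counts per rat in No SCI, CONT SCI and TX SCI, and CONT SCI + SWIM replicate 3 had 0 counts, which allows up to 0.114 CPM at 3 counts. No within-set difference of Ccl2 was detectable at this depth, with SE values of up to 0.65 on the log2 scale.

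Across the 11 comparisons within a set, the count of the 9 genes called was 1 for CONT SCI + Tiny against No SCI + Standard and 0 for the other 10, by edgeR. Counts of the 9 genes are given beside the share of all genes tested, at an unadjusted edgeR p under 0.05 or by DESeq2, whose share is over genes with an adjusted p. In CONT SCI + Tiny against No SCI + Standard, DESeq2 called Orm1 and Fgg, 2 of the 9, and 21.7% of all genes. In CONT SCI + Large against No SCI + Standard edgeR called 0.0337% of all genes, 29.4% of all genes and 2 of the 9 (Orm1 and Fgg) had an unadjusted p under 0.05, and DESeq2 called 12.5% of all genes and 1 of the 9, Orm1. In both comparisons these counts of the 9 lay near the share of all genes. Large against tiny cages called 0% of all genes by edgeR and 0.0174% by DESeq2, and 2.9% of all genes but none of the 9 had an unadjusted p under 0.05.

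CONT SCI against No SCI called 0.00801% of genes by edgeR and 0.474% by DESeq2, with 4.49% of genes and none of the 9 under an unadjusted p of 0.05. TX SCI against No SCI called 0.0638% by edgeR and 2.03% by DESeq2, with 12.1% of genes and 1 of the 9, Lcn2, under an unadjusted p of 0.05. Against CONT SCI the TX SCI rats gave 0.0321% by edgeR and 2.54% by DESeq2, with 13.4% of genes and 0 of the 9 under that unadjusted p. CONT SCI + SWIM against CONT SCI called 0.008% of genes by edgeR and 1.71% by DESeq2, with 13.1% of genes and 1 of the 9, Lcn2, at an unadjusted p under 0.05. Swimming against walking called 0% by edgeR and 0.109% by DESeq2, with 5.43% of genes and 1 of the 9, Lcn2, at that unadjusted p. Swimming against No SCI called 0.00796% by edgeR, with 10.5% of genes and 2 of the 9, Lcn2 and Orm1, at that unadjusted p, while DESeq2 called 1.34% of genes and 1 of the 9, Lcn2. CONT SCI + SWW against CONT SCI called 0.759% of genes by edgeR and 7.18% by DESeq2, with 20.8% of genes and 0 of the 9 at that unadjusted p. Walking against No SCI called 0.394% by edgeR and 6.99% by DESeq2, with 21% of genes and 1 of the 9, Stat3, at that unadjusted p. Apart from the calls of Orm1, Fgg and Lcn2 named above, DESeq2 called none of the 9 genes in any comparison within a set.

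For the test of whether the contusion effect differed between sets, edgeR called 0 of the 9 and 0.199% of all genes, and DESeq2 called 1 of the 9, Fgg, and 7.31% of all genes. At an unadjusted p under 0.05 stood 1 of the 9, Fgg, and 25.2% of all genes. In the comparisons within a set, none of the 9 had separated group ranges apart from Orm1 in CONT SCI + Tiny against No SCI + Standard. Of all genes, 4.13% had separated ranges in CONT SCI + Large against No SCI + Standard, 0.503% in large against tiny cages, 2.6% in CONT SCI against No SCI, 8% in TX SCI against No SCI and 8.93% in TX SCI against CONT SCI. The share was 5.71% for swimming and 8.53% for walking against CONT SCI, 0.655% for swimming against walking, and 3.84% for swimming and 7.1% for walking against No SCI. The median log2 fold change of the 9 genes lay between -0.20 and 0.11 in the within-set comparisons, where the median over all genes lay between -0.02 and 0.04.

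**Figure D2:**
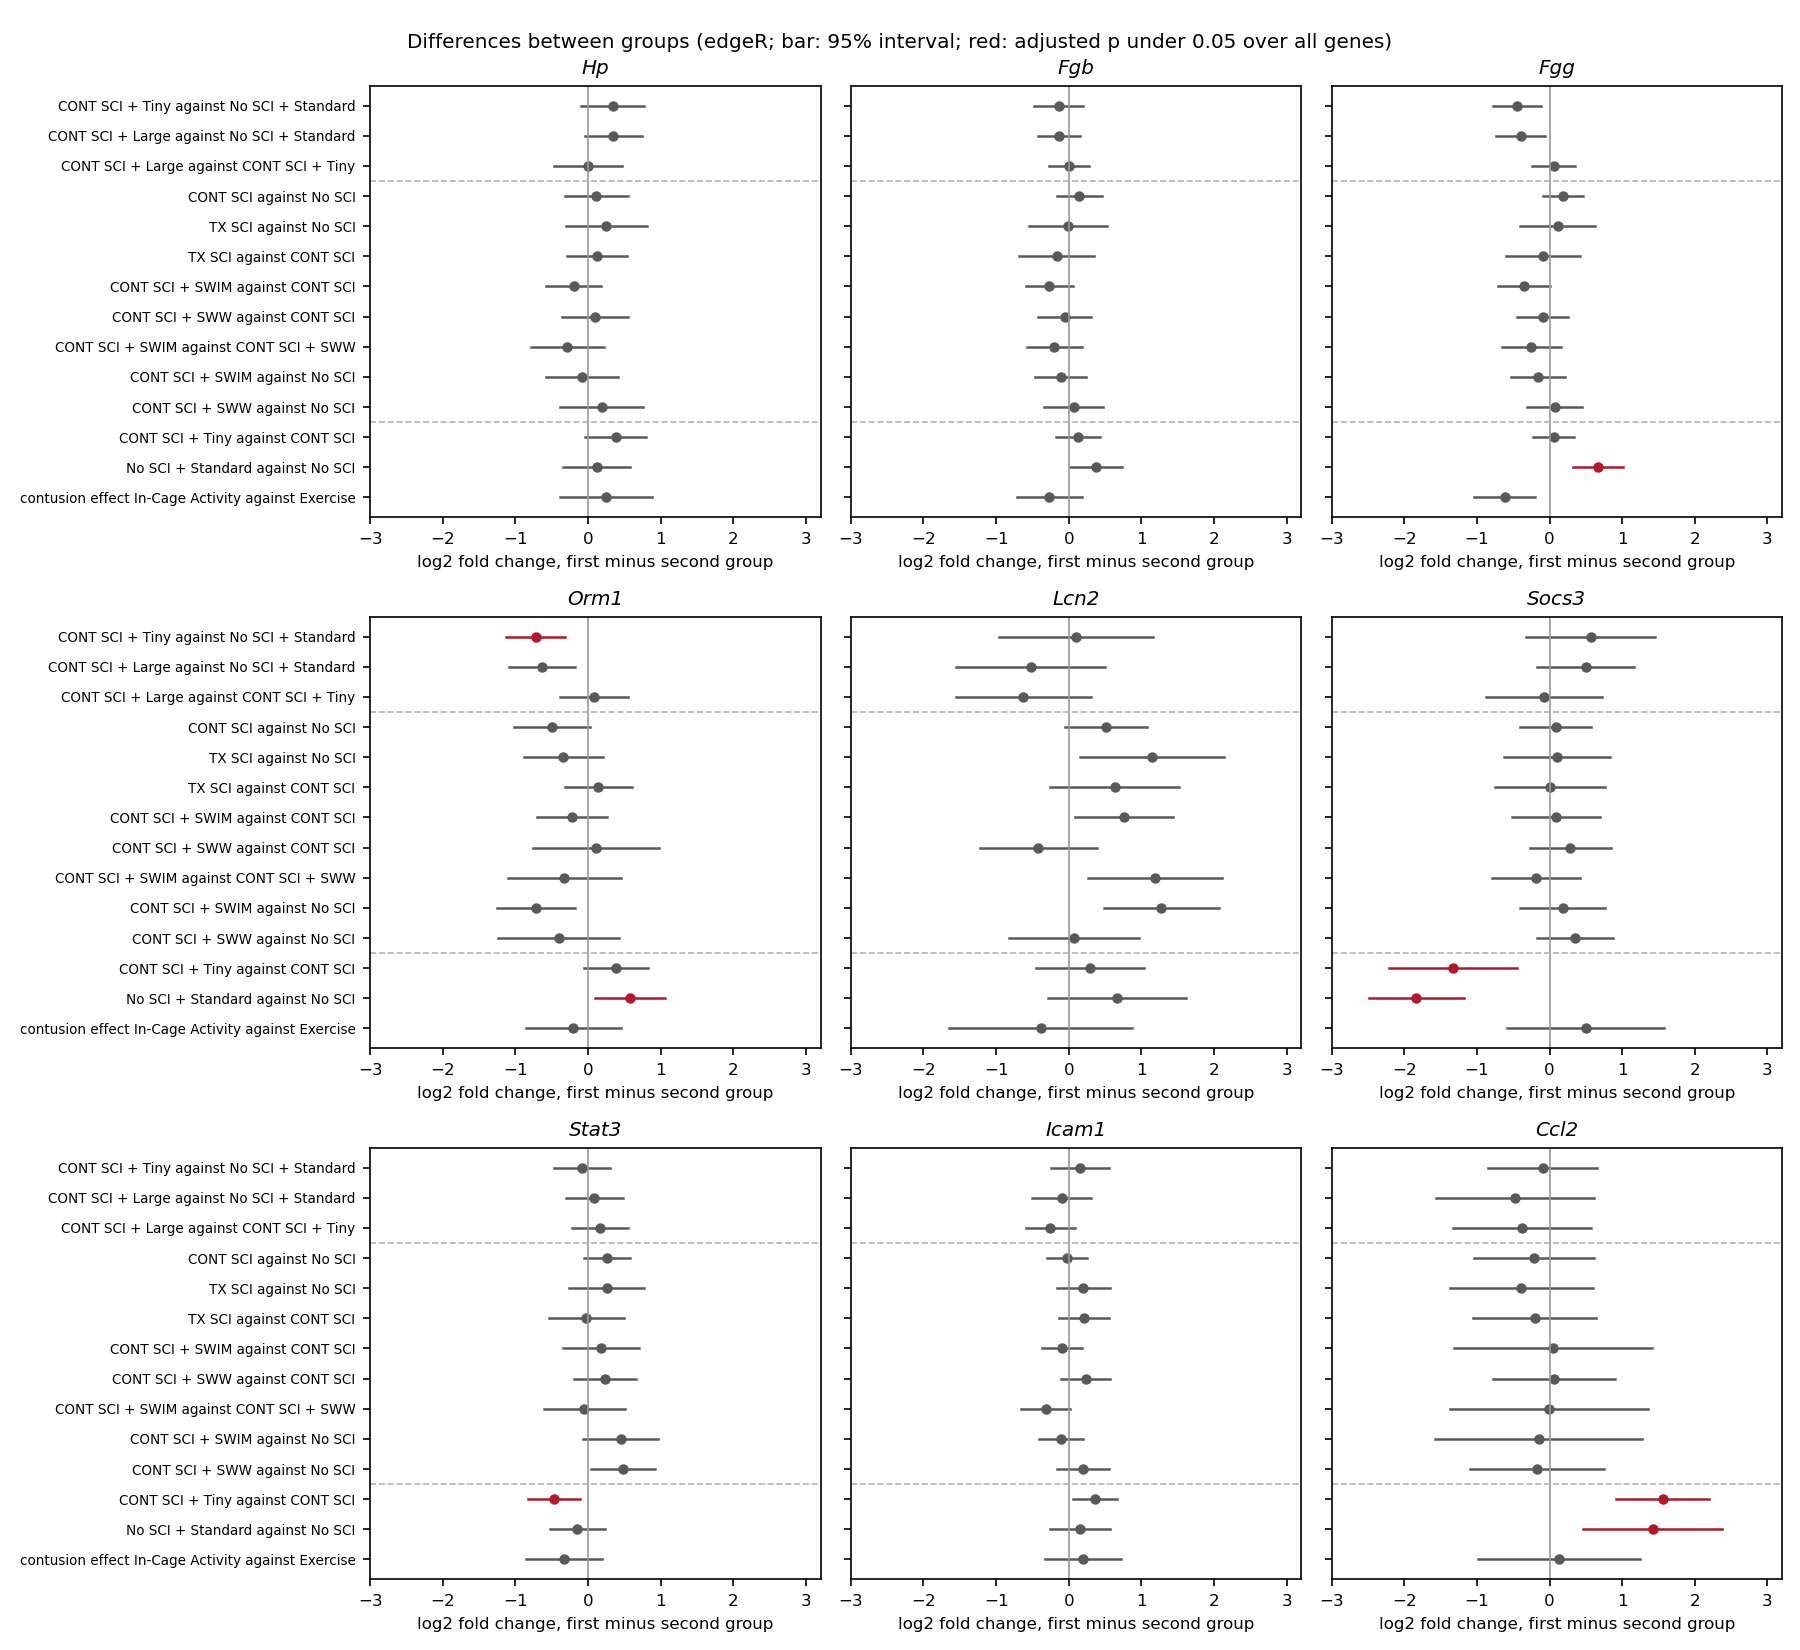
Log2 fold change (horizontal axis, first group minus second) of each gene in the 13 comparisons and in the test of the contusion effect between sets, with 95% intervals (bars). Red marks an edgeR adjusted p under 0.05 over all genes. Within the sets only Orm1 in CONT SCI + Tiny against No SCI + Standard is red, at -0.72, and the other red points compare rats of one set with rats of the other.

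Of the 9 genes, Socs3 had the largest log2 difference between the uninjured rats of the sets, and Ccl2 the largest between the contused rats. For Socs3, all 5 group means of the SCI + Exercise set lay above all 3 of the SCI + In-Cage Activity set, and the step from No SCI (8.90 ± 1.77 CPM) to CONT SCI + Tiny (3.65 ± 2.17 CPM) was the only one between neighbours in the order of group means, for any of the 9 genes, that exceeded the sum of their SDs. CONT SCI + Tiny and CONT SCI carry the same injury and cage label. Socs3 was 6.92, 3.39, 1.94, 1.53 and 4.49 CPM in the first and 6.73 to 13 CPM in the second, a log2 fold change of -1.32 (SE 0.40, 95% interval -2.21 to -0.44, edgeR adjusted p = 0.0208), lost without CONT SCI replicate 4 (edgeR adjusted p = 0.0600). Between the uninjured rats of the sets it was -1.83 (95% interval -2.49 to -1.17, edgeR adjusted p = 0.000518), with 0.971 to 3.97 CPM in No SCI + Standard all below the 6.26 to 9.94 CPM of No SCI.

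Ccl2 went the other way, at 0.674, 1.23, 0.861, 0.919 and 0.642 CPM in CONT SCI + Tiny against 0.229, 0.285, 0.351 and 0.346 CPM in CONT SCI. These ranges did not overlap, although the shallower libraries gave only 12 to 28 counts and the deeper ones 8 to 11, and the log2 fold change was 1.56 (95% interval 0.92 to 2.20, edgeR adjusted p = 0.00104). For the uninjured rats it was 1.42 (95% interval 0.47 to 2.38, edgeR adjusted p = 0.0172), a call lost without No SCI + Standard replicate 4 (edgeR adjusted p = 0.0507) or No SCI replicate 1 (0.0546) or 3 (0.0508). Stat3 was lower in CONT SCI + Tiny than in CONT SCI, at -0.46 on the log2 scale (95% interval -0.82 to -0.11, edgeR adjusted p = 0.0348). That call was lost without CONT SCI + Tiny replicate 3 (edgeR adjusted p = 0.0748), 4 (0.0654) or 5 (0.0639), or without CONT SCI replicate 2 (0.0773) or 4 (0.119).

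Fgg and Orm1 were higher in the uninjured rats in standard cages than in the uninjured rats in tiny cages of the other set. All No SCI + Standard rats (4571 to 7200 CPM) lay above all No SCI rats (3397 to 3637 CPM) for Fgg, a log2 fold change of 0.67 (SE 0.16, 95% interval 0.32 to 1.02, edgeR adjusted p = 0.00452). For Orm1 the log2 fold change was 0.58 (95% interval 0.10 to 1.06, edgeR adjusted p = 0.0450), a call lost without No SCI + Standard replicate 1 (edgeR adjusted p = 0.0660), 2 (0.113), 4 (0.0529) or 5 (0.0629) or No SCI replicate 1 (0.0681), 2 (0.103) or 3 (0.149). Between the contused tiny-cage rats of the sets, the Fgg log2 fold change was 0.06 (95% interval -0.22 to 0.34) and that of Orm1 0.38 (95% interval -0.06 to 0.82).

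These counts, 3 of 9 called between CONT SCI + Tiny and CONT SCI and 4 of 9 between No SCI + Standard and No SCI, stood beside 45.1% and 51.4% of all genes called. The genes with separated ranges were 1 of 9 (Ccl2) and 2 of 9 (Fgg and Socs3), beside 35.6% and 39.4% of all genes. The share called among the 9 did not exceed that of all genes. The sets also differed in depth, and the uninjured rats in cage, and these cannot be told apart from the set.

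On the log2(CPM + 1) scale, Lcn2 had the widest spread between rats of the same group. Its within-group SD on this scale was 0.61 in the SCI + Exercise set, followed by 0.51 for Orm1, 0.47 for Socs3 and 0.40 for Stat3, against a median of 0.23 over 9099 genes with a mean of at least 100 counts. Fgb and Fgg were both at 0.30 there, Hp at 0.37 and Icam1 at 0.22. In the SCI + In-Cage Activity set Lcn2 was again the most variable, at 0.68, followed by Socs3 at 0.51, while Fgg (0.22) and Fgb (0.20) lay slightly below the median of 0.23. The added 1 in this scale compresses the spread of low genes, most of all Ccl2.

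Which of the 9 genes moved together between rats of one group was described by correlating their deviations from the group means within each set. Fgb and Fgg had the highest correlation in the SCI + Exercise set, with Pearson's r = 0.94 and Spearman's rho = 0.93 over 22 rats. The permutation p was 2e-05 for both, from 100000 permutations within groups (adjusted p = 0.00144 over 72 pairs). Without the 2 rats farthest from the median of Fgb, r was 0.90. In the SCI + In-Cage Activity set r was 0.76 and rho 0.78 over 15 rats (permutation p = 0.00138 and 0.00174, adjusted p = 0.0497 and 0.0313), and r was 0.75 without the 2 farthest rats. These were the 2 of 72 pairs that passed by Pearson's r. By Spearman's rho, Hp with Orm1 (rho 0.79, adjusted permutation p = 0.0313) and Hp with Icam1 (rho 0.77, adjusted permutation p = 0.0313) also passed in the SCI + In-Cage Activity set. Their r values were 0.78 and 0.70 (adjusted permutation p = 0.0621 and 0.0750). In the SCI + Exercise set their rho values were 0.55 and 0.25, neither past the threshold (adjusted permutation p = 0.141 and 0.585).

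**Figure D3:**
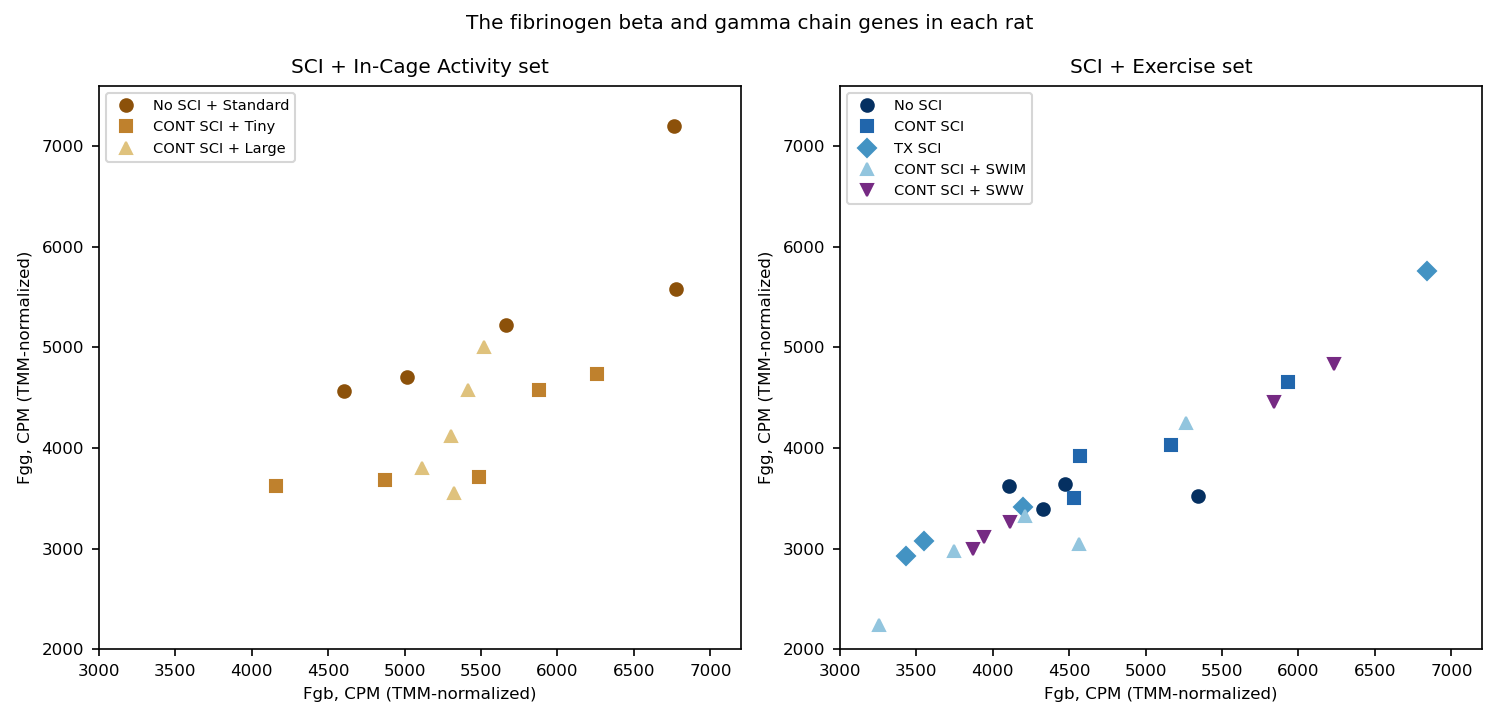
Fgg level (vertical axis) against Fgb level (horizontal axis), both in TMM-normalized CPM, 1 point per rat, with symbols for groups, and the SCI + In-Cage Activity set on the left and the SCI + Exercise set on the right. The axes do not start at 0. The SCI + Exercise rats fall along 1 line (r = 0.94 after removing group means), and the 3 highest Fgg levels on the left, 5225 to 7200 CPM, are those of No SCI + Standard rats.

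Of the 72 pairs, 58 had a positive r and 14 had an unadjusted permutation p under 0.05. The median r was 0.40 in the SCI + In-Cage Activity set and 0.18 in the SCI + Exercise set, and the genes of a pair share library and depth. Stat3 had r = 0.64 with Fgb and 0.65 with Fgg in the SCI + Exercise set, neither past the threshold, and these dropped to 0.46 and 0.45 without the 2 farthest rats. Stat3 and Socs3 had r = 0.60 over 15 rats and 0.31 over 22 rats, neither past the threshold (adjusted permutation p = 0.181 and 0.467). Without the 2 farthest rats these were 0.43 and 0.25. Ccl2 had the lowest r of all pairs, -0.47 with Socs3 in the SCI + In-Cage Activity set, and 0.42 with the same gene in the other set, neither past the threshold.

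**Figure D4:**
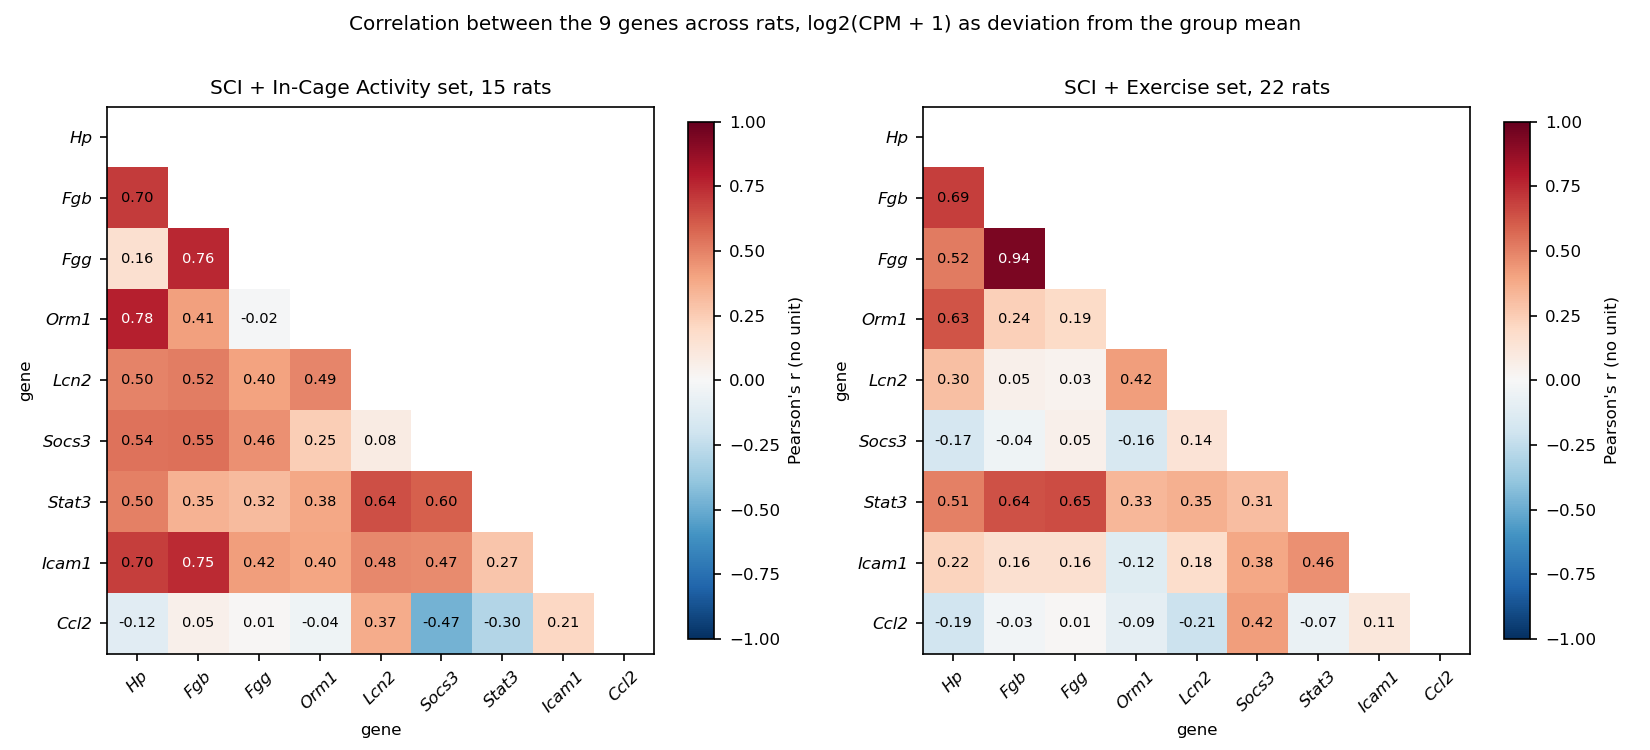
Pearson's r (colour and number) between each pair of the 9 genes over rats, from log2(CPM + 1) levels after subtracting the group mean, for 15 rats on the left and 22 on the right. Fgb with Fgg is the darkest cell on the right at 0.94, and most cells outside the Ccl2 row are positive on the left.

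Among all 9099 genes of sufficient depth, ranked by the mean of the 2 within-set r values, Fgg was the gene most like Fgb (mean r 0.85) and Fgb the second most like Fgg. Hp was the gene most like Orm1 (mean r 0.70). The gene most like Fgg had a mean r of 0.97, and the identifiers of that gene and of the closest genes of the other 6 could not be paired with a name here.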

How the data were processed

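Poly A RNA from 37 rat livers was sequenced as stranded single-end libraries. The authors checked reads with FastQC 0.10.1, aligned them to Rn6 with STAR and counted them per gene with HTSeq on the reverse strand of an Ensembl annotation without mitochondrial genes, and deposited 1 table of raw counts for 24613 Ensembl identifiers and 37 rats (0 columns were left unused). Groups came from the sample titles.

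Levels were TMM-normalized CPM. Each comparison was fitted on its 2 groups with edgeR 4.0.16 in R 4.3.3 (quasi-likelihood test, robust), after filterByExpr (count of at least 10, total of at least 15), with an adjusted p threshold of 0.05 over all genes and approximate 95% intervals. Alternatives were DESeq2 1.42.0, RLE scaling, no filter, all groups in 1 fit, leaving out each rat, and a block for the replicate number. The scripts were tested on simulated data. Correlations used log2(CPM + 1) deviations from group means and two-sided permutations within groups, with Python 3.11.15. Depth was 20066978 to 36761953 counts per rat, and a count of 0 allows up to 3 counts (counting error only). No 2 rats of a group agreed within sampling noise (lowest reduced chi-square 31.0 over 68 pairs).

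The 9 genes, and the lists, were chosen with earlier results of these data known. All 9 were named whatever their values, with the 2 genes most like each where a name was at hand. None of the identifiers matched the RefSeq name table (0 of 24613), so pathway genes and liver cell type markers could not be looked up and the tissue label was not checked against markers. Per-rat p-values rest on the spread between these animals and treat each rat as separate, although cage-mates are not fully so.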

Additional observations from a re-analysis of the deposited data

Results flagged for a closer look

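Of 72 sets of 4 or 5 rats (9 genes in 8 groups), 7 held a rat that stood apart by Dixon's test, which flags about 1 in 20 by chance. Hp was 11805 CPM in CONT SCI + SWIM replicate 3, against 6609 to 7190 CPM in the other 4 rats. This library had the fewest counts on genes of its set (26190364). It also had the lowest share of uniquely mapped reads in the paper's alignment summary. The same rat had 15.6 CPM of Lcn2 and 0 counts of Ccl2. Orm1 was 1813 CPM in CONT SCI + SWW replicate 5, against 430 to 752 CPM, and the same rat had 9.33 CPM of Lcn2, against 2.10 to 4.03 CPM. Lcn2 was also high in CONT SCI + Large replicate 4, at 9.22 CPM against 2.13 to 3.97 CPM, and in No SCI + Standard replicate 5, at 14.6 CPM against 3.13 to 5.27 CPM. Socs3 was 17.8 CPM in CONT SCI + SWIM replicate 4, against 7.47 to 8.64 CPM. In No SCI replicate 4 Socs3 was the lowest of its group, at 6.26 CPM against 9.52 to 9.94 CPM.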

How the results depend on the processing

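No value of the 9 genes that passed the test reversed under any alternative. With DESeq2 the number of the 9 genes called was 2 for CONT SCI + Tiny against No SCI + Standard (Fgg joined Orm1, adjusted p = 0.0287), 1 for CONT SCI + Large against No SCI + Standard (Orm1, adjusted p = 0.0445), 1 for CONT SCI + SWIM against No SCI (Lcn2, adjusted p = 0.0331) and 1 for the difference of contusion effects (Fgg, adjusted p = 0.0382), where edgeR gave 1, 0, 0 and 0. DESeq2 called 21.7%, 12.5%, 1.34% and 7.31% of all genes there. The cause was not tested. Without the filter on low counts, edgeR's call of Orm1 between the uninjured groups was lost (adjusted p = 0.0506). Leaving out each rat gave 0 to 1 of the 9 genes called for CONT SCI + Tiny against No SCI + Standard. That range also held for walking against CONT SCI and the difference of contusion effects. For CONT SCI + Tiny against CONT SCI it was 1 to 5, beside 4487 to 5557 of all genes (45.1% with all rats). For No SCI + Standard against No SCI it was 2 to 5, beside 5238 to 6705 of all genes (51.4% with all rats). Each of the other comparisons gave 0. Among values that did not pass as reported, the sign changed in 91 of 1147 with a rat left out, 11 of 118 with the block, 1 of 118 without the filter, 1 of 98 with all groups in 1 fit, and 0 of 118 with RLE scaling or with DESeq2. Ccl2 did not pass the filter on low counts in 4 fits with a rat left out. With RLE scaling, Hp with Fgb (r = 0.70, SCI + Exercise) and Hp with Orm1 (r = 0.78, SCI + In-Cage Activity) passed, at an adjusted permutation p of 0.0477 each.

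Replicate numbers did not pair the rats, as every comparison had a same-numbered pair with deviations correlated at or below 0.1. With the number as a block, No SCI + Standard against No SCI gave 2 calls of the 9 in place of 4. Fgg and Orm1 were lost (adjusted p = 0.0607 and 0.0714). CONT SCI + Tiny against CONT SCI gave 2 in place of 3 (Stat3 lost, adjusted p = 0.0791). Calls over all genes also fell, from 6252 to 4674 and from 5505 to 4359.

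Of all genes, by edgeR, DESeq2 and edgeR with all groups of the set in 1 fit, the number called was 1479, 2523 and 899 for CONT SCI + Tiny against No SCI + Standard, 4, 1375 and 935 for CONT SCI + Large against No SCI + Standard, 0, 3 and 0 for large against tiny cages, 1, 63 and 0 for CONT SCI against No SCI, 8, 291 and 268 for TX SCI against No SCI, and 4, 363 and 135 for TX SCI against CONT SCI. With exercise it was 1, 254 and 10 for swimming against CONT SCI, 96, 910 and 20 for walking against CONT SCI, 0, 14 and 0 for swimming against walking, 1, 200 and 49 for swimming against No SCI, and 50, 936 and 272 for walking against No SCI. The difference of contusion effects gave 25 genes by edgeR and 773 by DESeq2. With the block, counts were 1, 13, 4, 1, 7, 7 and 12 for CONT SCI + Large against No SCI + Standard, CONT SCI against No SCI, TX SCI against No SCI, TX SCI against CONT SCI, swimming against CONT SCI, swimming against No SCI and walking against No SCI. Without the filter they were 116 for CONT SCI + Large against No SCI + Standard and 3 for CONT SCI against No SCI. Leaving out each rat, CONT SCI + Tiny against No SCI + Standard gave 15 (without uninjured replicate 4) to 2998 (without uninjured replicate 1). CONT SCI + Large against No SCI + Standard gave 0 (without large-cage replicate 2) to 2020 (without large-cage replicate 1). Walking gave 2 (without No SCI replicate 1 or 3) to 1684 (without No SCI replicate 2) against No SCI, and 0 (without CONT SCI replicate 4) to 533 (without CONT SCI + SWW replicate 5) against CONT SCI. The difference of contusion effects gave 1 (without CONT SCI replicate 3 or 4) to 2010 (without No SCI replicate 2), and TX SCI against CONT SCI 1 (without any 1 of 4 rats) to 234 (without TX SCI replicate 4). Ranges were 2 to 23 and 1 to 9 for TX SCI and CONT SCI against No SCI, 0 to 2 and 0 to 9 for swimming against CONT SCI and No SCI and 0 to 1 for swimming against walking and large against tiny cages. Depth limits Ccl2 most, at 0 to 32 counts per rat.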
